A study of Homo sapiens with 9 samples.

Results

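Transcripts of 8 adhesion molecules of the immunoglobulin family were examined in MDA-MB-231 cells, a human breast cancer line with mesenchymal features that lacks estrogen and progesterone receptors. The 8 genes were VCAM1, ICAM1, ICAM2, ICAM5, ALCAM, L1CAM, MCAM and F11R. They were looked up by symbol and Ensembl identifier among 24344 genes of the count table, and all 8 were present and passed the filter on low counts that left 14195 genes. The set had been chosen on measured differences of these same libraries, VCAM1 for its difference between CKI and Baituling, so the levels and fold changes of the 8 genes are given as a description and without tests.

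For 48 h, cultures received Compound Kushen Injection (CKI, made from the herbs Kushen and Baituling) at 2.0 mg/mL of total alkaloids, or an injection of Kushen or of Baituling alone at the matching dilution. Each treatment had 3 libraries, numbered as replicates in the labels, and the step at which they were separated is not given, so SD and SE measure the spread between these libraries. Untreated cells were not analysed here, so a gene that was higher after Baituling than after Kushen cannot be assigned to a rise under the one or a fall under the other. Since RNA was taken from whole cultures, fewer cells that carry a transcript and less transcript per cell cannot be told apart.

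Immunoglobulin-family adhesion molecules are membrane proteins whose extracellular domains bind integrins on other cells or another molecule of their own family. VCAM1 and ICAM1 are best known from inflamed endothelium, where cytokines induce them through NF-kB and where they hold leukocytes by their integrins. ICAM2 is a largely constitutive relative, and ICAM5 was first described in neurons of the forebrain. ALCAM (CD166), L1CAM and MCAM (CD146) bind in part to themselves and are studied in tumour cell migration. F11R (JAM-A) is a component of tight junctions.

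The promoters of VCAM1 and ICAM1 are shown because the transcripts of these NF-kB-inducible genes differed so unlike each other between the injections. Sequences are from RefSeq on build GRCh38.p14, run from 250 bases before to 50 bases after the annotated start, and are written 5′ to 3′ on the coding strand. Capitals mark matches, on either strand, to GGGNNNNNCC or GGNNATTCC, which are loose forms of the NF-kB motif. The VCAM1 window is chr1:100719492-100719791 and the ICAM1 window is chr19:10270870-10271169, both on the plus strand.
VCAM1: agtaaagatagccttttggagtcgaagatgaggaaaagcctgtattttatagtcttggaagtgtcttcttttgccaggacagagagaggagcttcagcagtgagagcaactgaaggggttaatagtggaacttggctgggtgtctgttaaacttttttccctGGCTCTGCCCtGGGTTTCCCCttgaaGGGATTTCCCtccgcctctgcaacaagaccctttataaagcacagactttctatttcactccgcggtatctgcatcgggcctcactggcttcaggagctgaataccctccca
ICAM1: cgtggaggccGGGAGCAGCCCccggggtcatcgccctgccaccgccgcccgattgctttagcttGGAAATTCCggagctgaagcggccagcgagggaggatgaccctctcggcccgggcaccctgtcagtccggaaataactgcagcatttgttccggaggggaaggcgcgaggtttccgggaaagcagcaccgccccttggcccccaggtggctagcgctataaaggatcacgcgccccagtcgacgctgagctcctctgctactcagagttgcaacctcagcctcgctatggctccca

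The VCAM1 promoter held 3 matches to GGGNNNNNCC, beginning 88, 77 and 62 bases before the start. The match at 62 bases also fitted the stricter NF-kB consensus, which was present in 5.91% of the 35116 promoters of the table. Of the other adhesion genes with a promoter sequence at hand, MCAM alone held it, just after its start. The ICAM1 promoter held 2 overlapping matches to GGGNNNNNCC, at 240 and 239 bases before the start, and the match to GGNNATTCC at 186 bases. GGGNNNNNCC was present in 58.7% of all promoters and in all 6 of the adhesion genes with a promoter sequence at hand, and GGNNATTCC in 3.08% of all promoters and in ICAM1 alone of the 6. Both promoters also contained TATAAA close to the start, which 11.5% of all promoters held in either direction. TTCNNNGAA, the form bound by STAT factors, was found in ICAM1 at 75 bases before the start and in 7.66% of all promoters. ICAM2 and F11R had no promoter sequence at hand, and none of the other 6 genes held the AP-1 form TGANTCA, which 7.71% of all promoters held. These letters were matched as text only. Binding was not measured.

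VCAM1 (ENSG00000162692; chromosome 1, 101185298 to 101204601, build hg19) had the widest range of the 8 genes on the log2 scale. Its level, in CPM (counts normalised to TMM-scaled library size), was 4.75, 4.39 and 4.46 in the CKI libraries, 7.202, 8.33 and 7.32 in the Kushen libraries, and 62.5, 65.5 and 64.5 in the Baituling libraries. No 2 groups overlapped, and Baituling stood far above both treatments that contain Kushen. VCAM1 was 14.1 times lower in CKI than in Baituling (log2 fold change -3.82 ± 0.08, SE) and 8.42 times lower in Kushen than in Baituling (-3.07 ± 0.07). It was also 1.68 times lower in CKI than in Kushen (-0.75 ± 0.10). The CKI values rest on 109 to 121 reads per library, the Kushen values on 165 to 203 and the Baituling values on 1169 to 1282.

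ICAM1 (ENSG00000090339; chromosome 19, 10381769 to 10397291) is read here as the companion of VCAM1, because both are induced by the same cytokines in endothelium. Its level was 110, 116 and 124 CPM in CKI, 108, 114 and 115 CPM with Kushen, and 105, 107 and 106 CPM in Baituling. CKI and Kushen overlapped, whereas the Baituling libraries lay just below those of both other groups. The log2 fold changes were 0.05 ± 0.05 in CKI versus Kushen, 0.14 ± 0.05 in CKI versus Baituling and 0.08 ± 0.05 in Kushen versus Baituling (SE), so that ICAM1 leaned in the direction opposite to VCAM1 and by a small amount. Under scaling by library totals the last 2 values were 0.42 and 0.29, since that scaling moved the median of all genes by 0.29 and 0.21. ICAM1 overlaps the long noncoding RNA genes LIMASI and ICAM4-AS1 on the opposite strand, and the libraries were unstranded.

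The balance of the pair can be given without any scaling between libraries. There were 4.31, 3.78 and 3.61 VCAM1 reads per 100 ICAM1 reads in the CKI libraries and 6.70, 7.31 and 6.34 in the Kushen libraries. In the Baituling libraries there were 59.3, 61.1 and 61.1. The 3 groups did not overlap in this ratio, which the scaling between libraries does not touch.

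**Figure D1:**
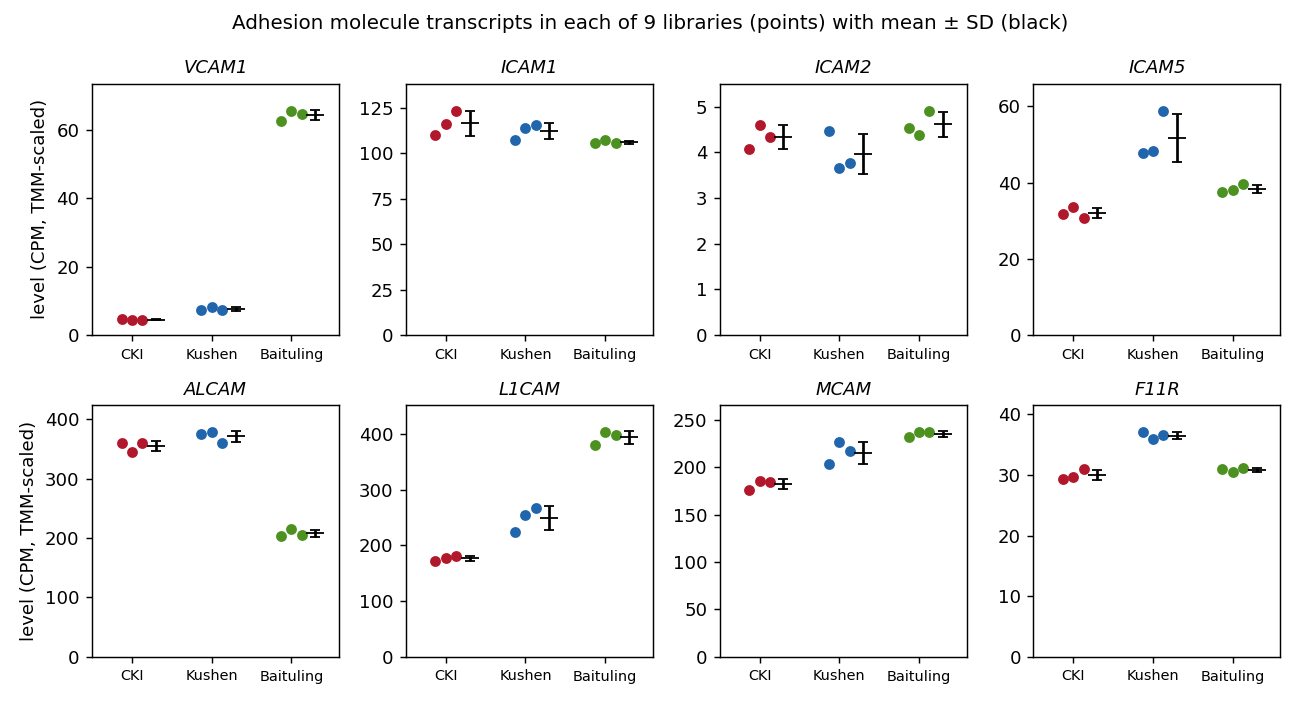
Level of each adhesion molecule transcript (y axis, CPM on TMM-scaled library sizes, linear from 0) in the 3 libraries of each injection (points), with mean ± SD (black, n = 3). VCAM1 averaged 64.2 CPM in Baituling against 4.53 in CKI, while ICAM1 stayed between 105 and 124 CPM in all 9 libraries.

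The remaining members of the ICAM group behaved differently from VCAM1 and from each other. ICAM5 (ENSG00000105376; chromosome 19, 10400628 to 10407454) was 31.7, 33.5 and 30.8 CPM in CKI, 47.7, 48.4 and 58.9 CPM with Kushen, and 37.6, 38.1 and 39.5 CPM in Baituling. The order was Kushen above Baituling above CKI without overlap, and the third Kushen library stood apart from the other two. The log2 fold change of ICAM5 was -0.69 ± 0.07 in CKI versus Kushen and 0.43 ± 0.07 in Kushen versus Baituling (SE). Its difference between CKI and Baituling was -0.26 ± 0.07 but 0.02 under library totals. ICAM2 (ENSG00000108622; chromosome 17, 62079954 to 62097994) was counted with 80 to 114 reads per library and averaged 4.34 ± 0.257 CPM in CKI, 3.96 ± 0.440 with Kushen and 4.61 ± 0.271 in Baituling (SD, n = 3). All 3 groups overlapped, and no difference was detectable at this depth. PRR29 lies on the opposite strand over part of ICAM2.

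ICAM1 and ICAM5 are neighbours on chromosome 19. The genes lie on the same strand, with ICAM4 (chromosome 19, 10397631 to 10399198), a red cell antigen, between them, 339 bases after ICAM1 and 1429 bases before ICAM5. ICAM3, the leukocyte member, is on the other strand, and its near (3′) end lies 36997 bases beyond ICAM5. ICAM4 had a count of 0 in all 9 libraries, which allows up to 3 reads per library. ICAM3 averaged 28.6 ± 2.00 CPM in CKI, 26.5 ± 1.69 with Kushen and 25.2 ± 0.941 in Baituling (SD, n = 3), and in CKI versus Baituling its log2 fold change was 0.18 ± 0.07 with an adjusted p of 0.0242 in edgeR's quasi-likelihood test. In Kushen versus Baituling, where ICAM5 was higher by 0.43, ICAM3 was higher by 0.07 (adjusted p 0.402).

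ALCAM and L1CAM, which are both abundant here, differed in opposite directions. ALCAM (ENSG00000170017; chromosome 3, 105085753 to 105295744) was 360, 346 and 360 CPM in CKI, 375, 378 and 360 CPM with Kushen, and 204, 215 and 205 CPM in Baituling. CKI and Kushen overlapped and both lay well above Baituling. The log2 fold change was 0.77 ± 0.04 in CKI versus Baituling and 0.84 ± 0.04 in Kushen versus Baituling (SE). In CKI versus Kushen it was -0.06 ± 0.04, and 0.01 under library totals. L1CAM (ENSG00000198910; chromosome X, 153126969 to 153151627) was 172, 177 and 181 CPM in CKI, 225, 254 and 267 CPM with Kushen, and 380, 403 and 398 CPM in Baituling. The groups did not overlap, and the order was that of VCAM1. L1CAM was 2.23 times lower in CKI than in Baituling (-1.16 ± 0.05), 1.58 times lower in Kushen than in Baituling (-0.66 ± 0.05) and 1.41 times lower in CKI than in Kushen (-0.49 ± 0.05). L1CAM overlaps an unnamed coding gene on its own strand and L1CAM-AS1 on the other.

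MCAM and F11R varied little. MCAM (ENSG00000076706; chromosome 11, 119179239 to 119192231) averaged 182 ± 5.23 CPM in CKI, 215 ± 11.6 with Kushen and 235 ± 3.09 in Baituling (SD, n = 3), again the order of VCAM1 with no overlap. Its log2 fold changes were -0.24 ± 0.04 in CKI versus Kushen, -0.37 ± 0.04 in CKI versus Baituling and -0.13 ± 0.04 in Kushen versus Baituling (SE). Under library totals they were -0.17, -0.08 and 0.09, so the place of Baituling in the MCAM order rested on the scaling. MCAM shares 5398 bases with CBL on the opposite strand. F11R (ENSG00000158769; chromosome 1, 160965001 to 160991133) averaged 30.0 ± 0.883 CPM in CKI, 36.5 ± 0.579 with Kushen and 30.8 ± 0.362 in Baituling, so that Kushen stood alone above the other two. Its log2 fold change was -0.28 ± 0.05 in CKI versus Kushen and 0.24 ± 0.05 in Kushen versus Baituling. In CKI versus Baituling it was -0.04 ± 0.06, with a changed sign under library totals (0.25), under upper quartile scaling (0.03) and when every library had to hold 10 counts or more (0.00). F11R also overlaps an unnamed coding gene on its own strand.

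**Figure D2:**
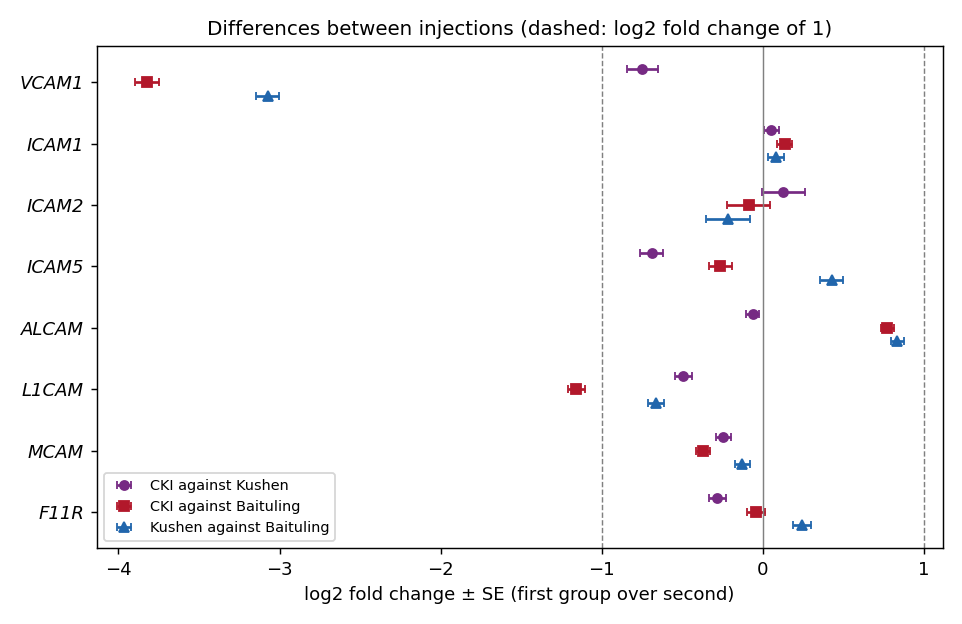
Log2 fold change ± SE (x axis, first group over second) of the 8 genes in the 3 comparisons, from the fit to all 9 libraries; dashed lines mark a log2 fold change of 1 in either direction. VCAM1 lies at -3.82 and -3.07 against Baituling, and L1CAM in CKI versus Baituling (-1.16) is the other value beyond the lines.

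By the threshold of the study, an adjusted p under 0.05 in edgeR with a log2 fold change beyond 1, 0 of the 8 genes were called in CKI versus Kushen, where 1.90% of all genes tested were called. DESeq2 also called 0, and 5 of the 8 had an unadjusted p under 0.05 in edgeR with smaller folds, beside 47.8% of all genes. This count is no test of the set, which was chosen on these values. In CKI versus Baituling 2 of 8 were called (VCAM1 and L1CAM, both lower in CKI), against 19.1% of all genes. In Kushen versus Baituling 1 of 8 was called (VCAM1, lower in Kushen), against 15.2%. The gene just inside the fold threshold was L1CAM in CKI versus Baituling, and the value just outside was that of ALCAM in Kushen versus Baituling. These depended on the scaling. Under library totals ALCAM passed in both comparisons with Baituling (1.06 and 1.05) and L1CAM no longer did (-0.87). The libraries of the 2 groups did not overlap for 5 of 8 genes in CKI versus Kushen (49.5% of all genes), for 6 of 8 in CKI versus Baituling (78.3%) and for 7 of 8 in Kushen versus Baituling (73.1%). The 5 in CKI versus Kushen were all lower in CKI, and the median log2 fold change of the 8 genes there was -0.26, beside 0.01 over all genes tested. The medians were -0.17 beside 0.03 in CKI versus Baituling and -0.02 beside 0.02 in Kushen versus Baituling. Since the set was chosen with these differences known, the counts are given for reference only. The comparisons share groups, so they are not independent of each other.

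Levels of different genes were compared per kilobase of annotated exon. This length joins the exons of all annotated transcripts of a gene, and the transcripts in use were not determined. Ranks and shares of different genes depend on this length. In CKI the highest level was that of ALCAM (49.5 ± 1.17 CPM per kb), followed by ICAM1 (33.8 ± 1.96). MCAM (24.5 ± 0.704) and L1CAM (24.3 ± 0.584) came next and did not differ beyond their spread (SD, n = 3). VCAM1 was last at 0.750 ± 0.031 CPM per kb, below ICAM2 (1.34 ± 0.079). In Kushen ALCAM was again highest (51.7 ± 1.38), L1CAM (34.2 ± 3.01) and ICAM1 (32.6 ± 1.22) were not separated, and VCAM1 (1.26 ± 0.102) was level with ICAM2 (1.22 ± 0.136) at the bottom. In Baituling the order was different. L1CAM led with 54.2 ± 1.67 CPM per kb, MCAM (31.7 ± 0.416), ICAM1 (30.8 ± 0.292) and ALCAM (29.0 ± 0.875) followed closely, and VCAM1 at 10.6 ± 0.251 ranked above ICAM5 (9.75 ± 0.260), F11R (6.09 ± 0.071) and ICAM2 (1.42 ± 0.084).

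The sum of the 8 levels changed less than its make-up. It was 148 ± 3.21 CPM per kb in CKI, 170 ± 5.70 with Kushen and 173 ± 3.29 in Baituling (SD, n = 3). TMM factors were 1.08 to 1.10 in CKI, 1.02 to 1.05 with Kushen and 0.877 to 0.899 in Baituling. The order of the sum across injections therefore rests on that scaling, whereas shares within the sum do not. VCAM1 made up 0.506% ± 0.029 of this sum in CKI, 0.739% ± 0.051 with Kushen and 6.12% ± 0.029 in Baituling. The share of L1CAM was 16.4% ± 0.081, 20.1% ± 1.13 and 31.2% ± 0.391 in the same order. That of ALCAM was 33.4% ± 0.989, 30.4% ± 1.58 and 16.7% ± 0.319, and that of ICAM1 22.8% ± 0.830, 19.1% ± 0.092 and 17.7% ± 0.236. By this measure L1CAM was the first transcript of the set after Baituling, and ALCAM after both treatments with Kushen.

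The genes whose pattern was most like that of VCAM1 were sought among all genes tested, as those with the smallest root mean square difference in log2 CPM over the 9 libraries after centring each gene. These were LGALS12, a galectin (0.146), PLA2G2A, a secreted phospholipase (0.246), PDZK1IP1, a small membrane protein (0.272), MUSK, a receptor kinase of the neuromuscular junction (0.332), and RHOJ, a small GTPase (0.388), on a scale where VCAM1 itself ranged over 3.87. LGALS12 averaged 5.44, 8.85 and 77.8 CPM in CKI, Kushen and Baituling, close to VCAM1 in level too. PLA2G2A was measured near the lower limit, at 0.304, 0.490 and 4.004 CPM. Among the other adhesion molecules L1CAM was nearest to VCAM1 with a difference of 1.19, at rank 979 of the genes tested. For ICAM1, which ranged over 0.228, the nearest genes were MAPKAPK2 (0.032), LRPAP1 (0.033), CNOT11 (0.034), DUSP22 (0.034) and CALCOCO2 (0.036). Of the members F11R was nearest to ICAM1 (0.143), but only at rank 2654 of the genes tested.

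**Figure D3:**
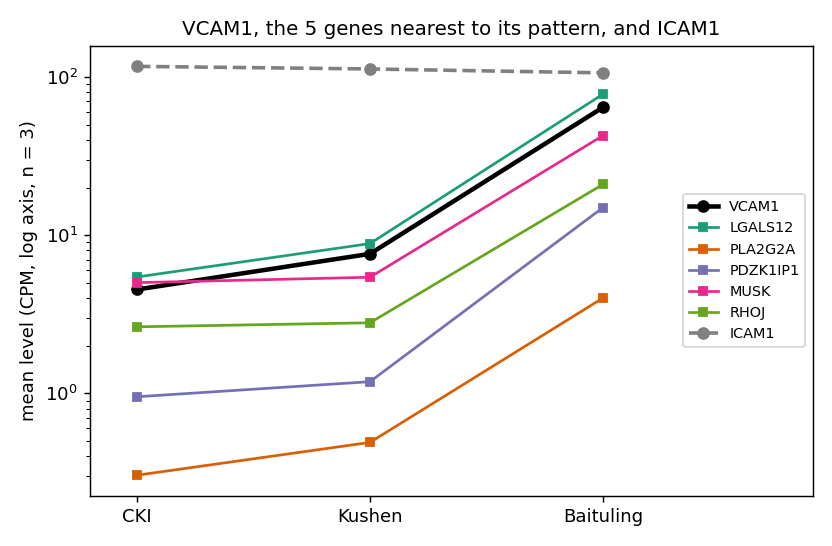
Mean level (y axis, CPM, log axis, n = 3) after each injection of VCAM1, of the 5 genes nearest to its pattern over 9 libraries, and of ICAM1 (dashed); lines join the means of 1 gene and imply no order of the injections. LGALS12 runs beside VCAM1, from 5.44 CPM in CKI to 77.8 CPM in Baituling.

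Markers were used to see which cells the libraries held. All 6 markers of mesenchymal-like breast cancer cells (VIM, CD44, S100A4, FN1, ZEB1, PLAUR) were above 1 CPM in every library. Their summed level moved with VCAM1: it was 1837 to 1895 CPM in CKI, 2313 to 2423 with Kushen and 5078 to 5134 in Baituling. Within the list VIM, CD44, S100A4 and FN1 had the order of VCAM1, whereas ZEB1 had 65.6, 71.6 and 68.5 CPM and PLAUR 137, 101 and 241 CPM in CKI, Kushen and Baituling. The sum of 6 luminal or epithelial markers, of which 3 were above 1 CPM in every library, had the same order, at 72.1 to 76.4, 80.5 to 83.4 and 141 to 145 CPM. The part of either sum in the VCAM1 difference was not tested. Of the receptors this line lacks, ESR1 had 0 to 3 reads and PGR 0 to 4 per library. Among the 5 endothelial markers in the table, CDH5, TEK and CLDN5 had at most 10 reads in any library and KDR alone passed 1 CPM everywhere. The endothelial sum was 13.5 to 16.0 CPM in CKI, 14.7 to 15.04 with Kushen and 10.2 to 11.2 in Baituling. Most of it was KDR, at 13.2, 14.3 and 10.2 CPM in the same order. Of 6 leukocyte markers PTPRC had at most 9 reads, and CD14 alone passed 1 CPM in every library. The leukocyte sum was 7.69 to 9.15, 5.03 to 7.14 and 9.55 to 11.8 CPM in the same order, highest in Baituling. Most of this sum was CD14, so its order is that of 1 gene and not of the list. The sum of 5 pericyte or fibroblast markers was 23.1 to 24.7, 15.1 to 18.1 and 8.005 to 10.98 CPM, lowest in Baituling. Within it ACTA2 had 1.61, 2.36 and 1.64 CPM. The part of the endothelial, leukocyte and pericyte sums in the VCAM1 difference was not tested either. All 9 libraries had similar depth, with 20144628 to 23782071 counts.

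Partners and regulators of the adhesion molecules were examined in 6 gene lists, of which 90 of 117 genes were tested in the same fit. The lists were written with earlier results of these data known, and most named genes were picked for a small adjusted p. Their counts and p-values are therefore a description and no independent test. An adjusted p under 0.05 in edgeR was found for 17 list genes higher and 28 lower in CKI than in Kushen, where 19.6% of all genes were higher and 20.2% lower. In CKI versus Baituling 34 were higher and 39 lower, where the shares of all genes were 39.1% and 37.0%. In Kushen versus Baituling 33 were higher and 40 lower (35.6% and 36.1% of all genes). Under library totals these splits turned to 28 and 21, 48 and 29, and 45 and 31, so the majority direction rested on the scaling.

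Other immunoglobulin-family adhesion molecules gave 21 tested genes. Against Baituling, 9 were higher and 7 lower in CKI, and 9 higher and 8 lower in Kushen. A minimum of 10 counts in each library made these 7 and 7, and 7 and 8. In CKI versus Kushen 1 was higher and 4 were lower, a split that library totals turned to 5 and 3. NRCAM, a neuronal relative of L1CAM, was 5.69 ± 0.986 CPM in CKI, 6.52 ± 0.734 with Kushen and 1.05 ± 0.382 in Baituling (SD, n = 3), and was higher than in Baituling by log2 fold changes of 2.42 ± 0.22 and 2.62 ± 0.21 (edgeR adjusted p 4.42e-09 and 1.39e-09). CXADR, the coxsackie and adenovirus receptor of tight junctions, was higher by 1.20 ± 0.07 and 1.07 ± 0.07 (adjusted p 6.22e-12 and 5.70e-11). BCAM, a laminin receptor, had 18.8 ± 1.73 CPM in CKI, 16.4 ± 1.43 with Kushen and 51.2 ± 1.16 in Baituling, and changed by -1.45 ± 0.07 and -1.64 ± 0.07 (adjusted p 5.23e-13 and 1.66e-13). BCAM thus shared the direction of VCAM1 and L1CAM against Baituling.

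Of 17 counter-receptors and ligands 10 passed the filter. ITGA4, the integrin chain through which leukocytes bind VCAM1, had 0 to 4 reads per library, and ITGAL, its counterpart for the ICAMs, had 0 to 1 (both named after their values were seen). The test was passed by 3 genes higher and 3 lower in CKI versus Baituling, 5 and 3 in Kushen versus Baituling, and 1 and 3 in CKI versus Kushen. Under library totals these were 6 and 2, 7 and 2, and 1 and 2. ITGB3, a chain of the RGD-binding integrins that recognise L1CAM, was higher than in Baituling by 1.39 ± 0.12 in CKI and 1.35 ± 0.12 in Kushen (edgeR adjusted p 1.67e-09 and 4.04e-09). LAMA4, a laminin chain bound by MCAM, changed by -1.03 ± 0.19 and -1.28 ± 0.20 (adjusted p 5.86e-05 and 8.67e-06). ITGB7 and ITGAX, 2 leukocyte integrin chains, were measured near the lower limit, at means of at most 1.04 CPM. With 3 to 38 reads per library for ITGB7 and 1 to 15 for ITGAX, they passed the filter on low counts only through the groups where they were higher, so no test is read for them. When every library had to hold 10 counts or more, the splits were 2 higher and 3 lower in CKI versus Baituling, and 3 and 3 in Kushen versus Baituling.

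All 16 genes of proteins that tie these molecules to the cytoskeleton or bind their PDZ ends were tested. In CKI versus Kushen 2 were higher and 7 lower, in CKI versus Baituling 8 and 7, and in Kushen versus Baituling 7 and 6. Under library totals the splits were 4 and 6, 9 and 6, and 9 and 5. ANK2, an ankyrin that anchors L1CAM, was the called gene of this list, 8.12 ± 0.623 CPM in CKI and 18.0 ± 0.504 in Baituling (SD, n = 3; log2 fold change -1.14 ± 0.08, edgeR adjusted p 2.19e-10). Changes in the rest of the list were below the fold threshold.

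All 16 genes of a list of sheddases, secretases, the inhibitor TIMP3 and tetraspanins were tested, and more of them were lower than higher in each comparison: 10 against 1 in CKI versus Kushen, 12 against 3 in CKI versus Baituling and 10 against 5 in Kushen versus Baituling. The medians of the list were -0.14, -0.39 and -0.28. Under library totals the lower genes were still the larger number, 7 against 3, 8 against 5 and 8 against 6. TIMP3, an inhibitor of the sheddase ADAM17, was 237 ± 8.28 CPM in CKI, 308 ± 12.4 with Kushen and 798 ± 11.5 in Baituling (SD, n = 3), and changed against Baituling by -1.75 ± 0.04 and -1.38 ± 0.04 (edgeR adjusted p 2.00e-17 and 8.13e-16). The tetraspanin TSPAN4 changed by -1.17 ± 0.06 in CKI versus Baituling (adjusted p 4.32e-13). ADAM12 was higher by 1.45 ± 0.21 and 1.06 ± 0.22 at a level of 1.19 ± 0.312 CPM in Baituling (adjusted p 4.48e-06 and 0.000304).

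Inputs to VCAM1 and ICAM1 transcription gave 21 tested genes of 23, namely NF-kB subunits with their inhibitors and kinases, cytokine receptors, TRAF2, STAT factors, IRF1 and SP1. In CKI versus Kushen 11 were higher and 2 lower, with a median of 0.20. In CKI versus Baituling 11 were higher and 8 lower (14 and 4 under library totals), and in Kushen versus Baituling 6 were higher and 10 lower, a split that library totals turned to 10 and 6. NFKB1, the p105 and p50 subunit gene, was 27.5 ± 2.10 CPM with Kushen and 56.4 ± 3.25 in Baituling (SD, n = 3; -1.04 ± 0.06, edgeR adjusted p 2.12e-11). TNFAIP3, the NF-kB feedback inhibitor A20, changed by -1.09 ± 0.09 in the same comparison (adjusted p 2.48e-09). TNFRSF1B, the inducible TNF receptor, went the other way and was higher than in Baituling by 1.69 ± 0.07 in CKI and 1.22 ± 0.07 in Kushen (adjusted p 5.94e-14 and 1.97e-11). TNF itself had 0 to 4 reads per library (named after its values were seen).

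Of 9 genes of the selectin axis 6 were tested. SELE, the endothelial selectin that cytokines induce together with VCAM1, had a count of 0 in all 9 libraries, which allows up to 3 reads per library (named after its values were seen). In CKI versus Kushen 1 was higher and 2 lower, in CKI versus Baituling 2 were lower, and in Kushen versus Baituling 1 was higher and 3 lower. Library totals and the minimum of 10 counts in each library both gave 2 higher and 2 lower in CKI versus Baituling, and library totals gave 2 and 3 in Kushen versus Baituling. CD34, a sialomucin that carries selectin ligands, was 1.74 ± 0.432 CPM in CKI, 0.758 ± 0.165 with Kushen and 1.60 ± 0.545 in Baituling (SD, n = 3). In CKI versus Kushen it was higher by 1.21 ± 0.29 and changed in Kushen versus Baituling by -1.08 ± 0.31 (edgeR adjusted p 0.00287 and 0.00433).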

How the data were processed

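RNA of MDA-MB-231 cells was sequenced as unstranded paired-end libraries, 3 for each of CKI, Kushen and Baituling. Reads were trimmed with Trim Galore 0.3.7 and aligned with STAR 2.5.3a to hg19. The authors deposited raw counts per gene; how reads were counted is not given in the sources used here. Groups came from sample titles and columns were matched by treatment initial and replicate number.

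Of 24566 rows, 222 repeated an Ensembl gene with identical counts, leaving 24344 genes. Symbols, positions and exon lengths were from GENCODE on GRCh37 (the hg19 assembly). Genes were filtered by filterByExpr (minimum count 10, minimum total 15), scaled by TMM and fitted over all 9 libraries with the quasi-likelihood test of edgeR 4.0.16 (R 4.3.3), group being the only term. P-values were two-sided and Benjamini-Hochberg adjusted over 14195 genes. Counts were also simulated for each comparison from the fitted dispersions, with the changed genes drawn from outside the lowest levels. All 100 genes with 2-fold and all 100 with 4-fold changes were recovered. This does not cover genes at the lowest levels or a spread beyond that of the fit. Replicates differed by a chi-square per gene of 1.70 to 6.85, above sampling noise.

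The adhesion genes and the lists were chosen with earlier results of these data known. Named list genes were at most 3 per list and comparison, those with the smallest adjusted p beyond a log2 fold change of 1; ICAM3 and ICAM4 were added as neighbours. Alternatives were DESeq2 1.42.0, other scalings and filters, 2-group fits, a replicate block, rows as deposited and leaving out each library. PECAM1, CD24 and IKBKG were not analysed here. The level of 1 leukocyte marker is not reported here.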

Additional observations from a re-analysis of the deposited data

How the results depend on the processing

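Library totals in place of TMM moved most values: 20 of the 24 fold changes of the 8 genes shifted by more than the spread between replicates, and 5 changed sign, all of them values that had not been called. The 5 included ICAM5 in CKI against Baituling and MCAM in Kushen against Baituling, whose libraries had not overlapped under TMM. Called genes in Kushen against Baituling went from 1 to 2 under library totals. Upper quartile scaling moved 8 values and the filter of at least 10 counts in every library 3, with 1 sign change each. Under each of the other 15 alternatives, including each left-out library and DESeq2, all 24 values stayed within the spread. Called genes numbered 0 in CKI against Kushen and 2 in CKI against Baituling under all 18 alternatives. The 2 were not always the same genes, since under library totals ALCAM (1.06) took the place of L1CAM (-0.87). List genes past the test ranged from 38 to 49, from 69 to 77 and from 67 to 76 in the 3 comparisons. Same-numbered libraries showed little shared deviation (correlations -0.07 to 0.12). Such values cannot exclude that libraries of the same number were handled together. With a replicate block the called genes were 0, 2 and 1 and the list genes 43, 71 and 73. At 80 to 114 reads per library, counting error limits what can be seen for ICAM2.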
